A study of Homo sapiens with 2 samples.

Results

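The proteasome subunit genes are a set of 41 human genes, PSMA1 to PSMA7, PSMB1 to PSMB10, PSMC1 to PSMC6, PSMD1 to PSMD14 and PSME1 to PSME4, chosen by name. They were read from 2 Affymetrix arrays of DLD-1, a line of human colorectal carcinoma cells with mutated endogenous p53. The cells held a stable tet-off transgene that expresses wild-type p53. In the p53 on culture tetracycline had been left out for 9 h, which switches the transgene on. In the p53 off culture tetracycline was present. Cells of both cultures carried the transgene, and the sources used here do not say whether the line is a single clone. The presence of tetracycline differed along with p53, so p53 expression and removal of the drug cannot be told apart. Of the 41 genes, 36 had at least 1 probe set annotated to them alone, and all 36 were measured on both arrays on that probe set. PSMA6 and PSME2 were listed only on probe sets shared with another gene, and PSMC5, PSMD7 and PSMD13 were not analysed here.

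The proteasome is the protease complex that degrades ubiquitin-tagged proteins in the cytosol and nucleus. Its barrel-shaped core is built from an alpha ring and a beta ring on each side, and a few of the beta subunits carry the active sites. A regulatory cap, made of a base with a ring of ATPases and of a lid, binds ubiquitinated substrates, removes the ubiquitin and threads them into the core. In immune cells, or after interferon, the catalytic subunits are replaced by immunoproteasome subunits that favour cutting peptides for MHC class I presentation. Other caps, the PSME activators, open the core without the need for ubiquitin. Because subunits are assembled in fixed proportions, their genes are often regulated together, in part by the transcription factor NRF1 (gene NFE2L1) acting through antioxidant response elements. p53 itself is degraded by the proteasome after MDM2 has ubiquitinated it.

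There was 1 array per condition. No spread between cultures could be estimated, so ratios are given without a test or p-value. Values are signals in arbitrary units, and log2 ratios compare p53 on with p53 off, positive where p53 on is higher. Each gene was read on its brightest probe set. Genes were counted as higher or lower at 1.5-fold, a log2 ratio of 0.58 in size. The p21 gene CDKN1A, a p53 target, had signals of 23349 with p53 on and 2723 with p53 off. Of 11 colon epithelium markers, 9 were above the floor of 112, the median of all signals, on each array, EPCAM among them at 35534 with p53 on and 20250.4 with p53 off, and KRT20 and CDX1 were under it on both. The arrays differed in RNA controls, with a beta-actin ratio of 3' to 5' signal of 7.29 with p53 on and 1.37 with p53 off, whose part in the ratios below was not tested. Spike-in probe sets were a median of 1.89 times brighter with p53 on. Scaling to them puts the median of all genes at -0.80 and leaves 1 proteasome gene, PSMB9, with a positive log2 ratio, so directions are relative to the typical gene.

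With p53 on, most proteasome genes had slightly lower signals, a few had clearly lower ones, and 1 immunoproteasome gene stood out as higher. Of the 36 genes, 28 had a negative and 8 a positive log2 ratio, and the median was -0.24 (95% order-statistic interval over the genes -0.58 to -0.10). The median of all 13915 measured genes was 0.0035. By size, 11 of the 36 were at least 1.5-fold lower, or 30.6%, against 25.9% of all measured genes, a share near the background. Only 2 were at least 1.5-fold higher, or 5.56%, where 25.9% of all measured genes were. At 2-fold, 4 were lower (11.1%, against 13.5% of all measured genes) and 1 was higher (2.78%, against 15.3%). The SD of log2 ratios was 0.75 over the 36 genes, against 1.06 over all measured genes. The proteasome genes were also far brighter, with a median mean signal of 7622 against 588, and the SDs were not matched for brightness. The plot of signals by gene shows both readings of each gene.

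**Figure D1:**
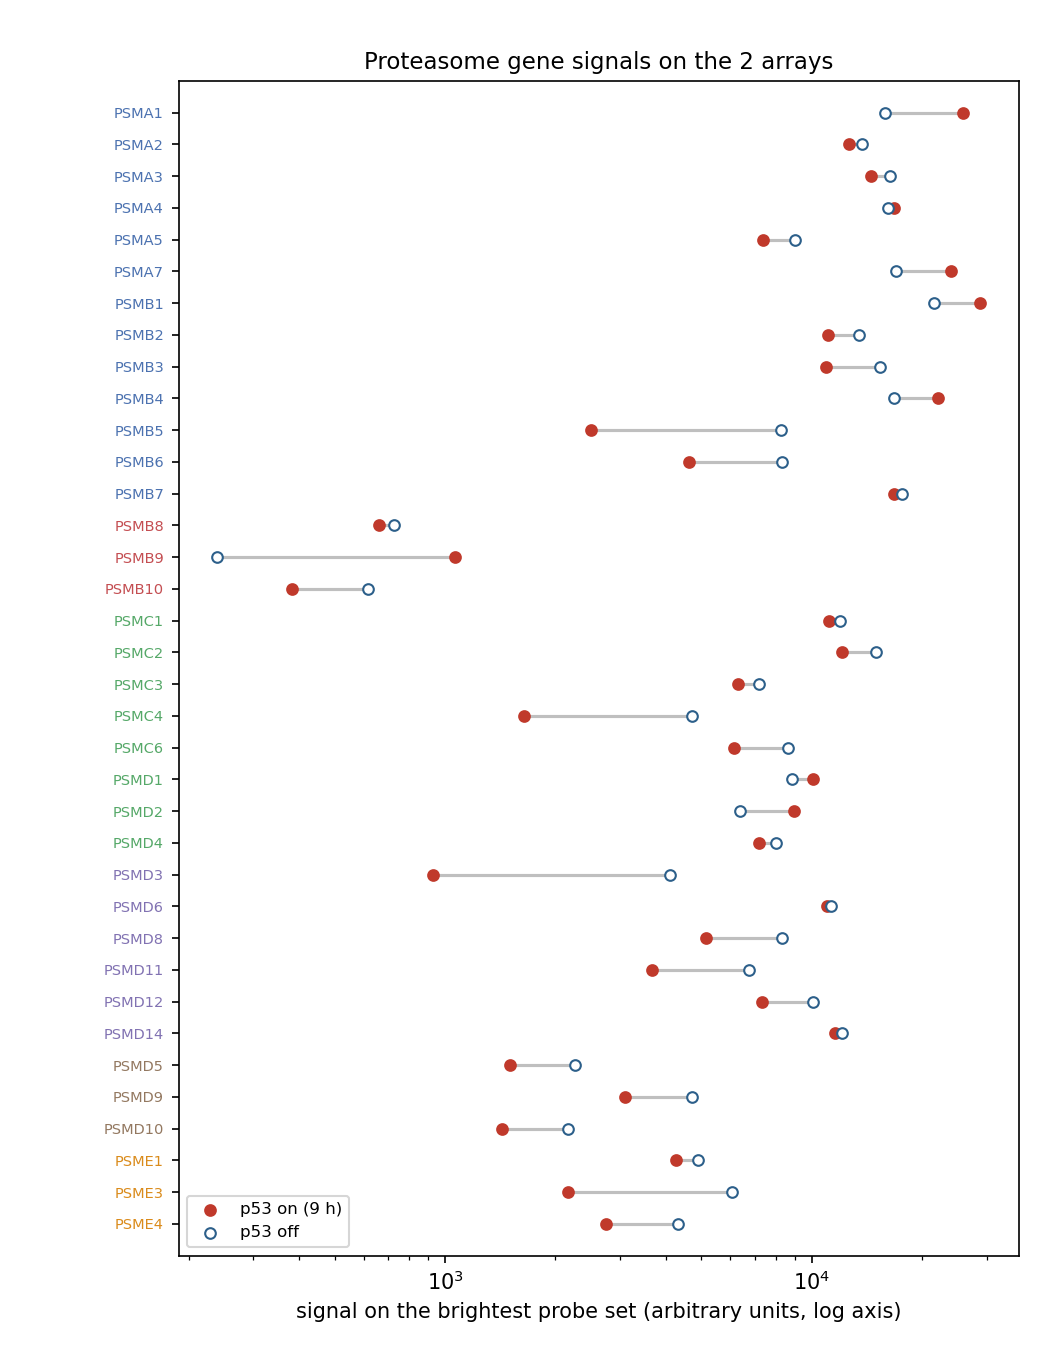
Signal of each proteasome gene's brightest probe set (horizontal log axis, arbitrary units) on the p53 on array (filled) and the p53 off array (open), with genes down the page coloured by part of the complex and a grey line joining both readings. Most pairs lie close together, whereas PSMB9 is far to the right with p53 on (1067 with p53 on, against 238 with p53 off) and PSMD3, PSMB5, PSMC4 and PSME3 are far to the left.

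The promoters of the 5 genes past 2-fold are shown because they carry the largest differences, together with that of TAP1, the divergent neighbour of PSMB9. Which promoters to add to those of PSMB9 and PSMD3 was decided after the values were seen. Each is RefSeq's window from 250 bases before to 50 bases after the gene start (build GRCh38.p14), written 5' to 3' on the gene's own strand. PSMB9 lies at chr6:32853942-32854241 on the plus strand and TAP1 at chr6:32853655-32853954 on the minus strand. PSMD3 lies at chr17:39980557-39980856, PSMC4 at chr19:39970915-39971214 and PSME3 at chr17:42833147-42833446, all on the plus strand, and PSMB5 at chr14:23035171-23035470 on the minus strand. Capitals mark matches, on either strand, to TGANNNNGC and to the interferon regulatory factor element, GAAA then any 2 bases then GAAA. TGANNNNGC is a loose form of the antioxidant response element, held by 42.2% of all windows, so a match need not be a full element.
PSMB9: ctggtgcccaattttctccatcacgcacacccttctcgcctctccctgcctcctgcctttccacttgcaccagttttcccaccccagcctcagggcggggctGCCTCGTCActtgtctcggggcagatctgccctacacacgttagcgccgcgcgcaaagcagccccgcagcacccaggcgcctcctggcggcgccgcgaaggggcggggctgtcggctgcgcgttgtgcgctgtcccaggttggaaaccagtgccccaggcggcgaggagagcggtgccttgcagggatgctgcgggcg
TAP1: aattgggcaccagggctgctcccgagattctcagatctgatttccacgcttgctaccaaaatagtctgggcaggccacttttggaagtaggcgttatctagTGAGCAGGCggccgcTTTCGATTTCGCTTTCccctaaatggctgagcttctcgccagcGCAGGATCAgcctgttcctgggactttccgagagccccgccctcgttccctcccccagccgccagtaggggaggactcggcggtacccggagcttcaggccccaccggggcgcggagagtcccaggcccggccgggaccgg
PSMD3: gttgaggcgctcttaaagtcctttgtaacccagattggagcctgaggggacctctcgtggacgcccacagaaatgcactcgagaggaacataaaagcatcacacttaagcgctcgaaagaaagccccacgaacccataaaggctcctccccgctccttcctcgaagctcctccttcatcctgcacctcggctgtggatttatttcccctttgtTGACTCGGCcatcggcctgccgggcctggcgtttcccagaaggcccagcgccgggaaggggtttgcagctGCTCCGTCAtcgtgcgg
PSMB5: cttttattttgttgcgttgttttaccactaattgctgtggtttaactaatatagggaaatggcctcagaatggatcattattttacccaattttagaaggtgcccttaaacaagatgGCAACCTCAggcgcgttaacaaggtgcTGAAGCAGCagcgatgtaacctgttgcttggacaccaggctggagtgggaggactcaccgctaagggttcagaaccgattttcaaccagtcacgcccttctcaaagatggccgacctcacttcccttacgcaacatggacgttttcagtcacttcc
PSMC4: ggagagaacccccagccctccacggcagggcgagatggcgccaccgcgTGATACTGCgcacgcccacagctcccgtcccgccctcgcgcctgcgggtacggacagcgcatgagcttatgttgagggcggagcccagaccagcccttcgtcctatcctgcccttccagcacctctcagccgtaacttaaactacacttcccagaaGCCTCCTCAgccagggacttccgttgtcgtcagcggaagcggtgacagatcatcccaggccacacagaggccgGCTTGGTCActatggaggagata
PSME3: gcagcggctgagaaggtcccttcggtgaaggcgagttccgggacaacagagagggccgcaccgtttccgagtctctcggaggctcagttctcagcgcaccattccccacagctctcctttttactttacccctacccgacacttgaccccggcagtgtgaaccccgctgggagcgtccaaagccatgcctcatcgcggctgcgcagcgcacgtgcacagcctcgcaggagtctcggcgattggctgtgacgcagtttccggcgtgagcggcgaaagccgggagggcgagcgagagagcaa

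TGANNNNGC was found in 22 of the 36 proteasome genes that had a promoter window, or 61.1%, and in 42.2% of the windows of all 27305 genes. This set of 36 is not the same as the 36 measured genes, and 31 genes are in both. PSMD3 and PSMB5 held 2 matches each, PSMC4 held 3, PSMB9 held 1 and PSME3 held none. The 19 measured genes with a match had a median log2 ratio of -0.30, and the 12 measured genes with a window but no match had one of -0.21. The interferon regulatory factor element was found in PSMA4, PSMB4, PSMB10, PSME1 and PSME2, 5 of 36 genes or 13.9%, against 3.66% of all windows. The 4 of them that were measured had a median of -0.072 and the 27 without a match one of -0.31. The PSMB9 window held no such match, whereas TAP1's held 2 that overlap each other, at positions 117 to 132 of its window, within the stretch of 487 bases between the starts of both genes. The E-box CACGTG was in 3 of 36 windows, PSME3 among them, and in 7.40% of all windows. The p53 half-site consensus was in 3 of 36 windows, those of PSMA2, PSMB10 and PSMD13, and in 6.53% of all windows. TTCNNNGAA, the gamma-activated site bound by STAT factors, was in 4 of 36 windows, or 11.1%, those of PSMA2, PSMC4, PSMD3 and PSME3, against 7.88% of all. Their median log2 ratio was -1.50, against -0.28 for the 27 measured genes with a window but no match. PSMD3, PSMC4 and PSME3, 3 of the 4, were at least 2-fold lower, as were 13.5% of all measured genes, and PSMA2 was at -0.12. This was the widest gap of the motifs searched and rests on 4 genes. Ratios of other genes with this match were not examined, and a link was not tested. CCAAT was in 47.2% of the proteasome windows and 35.7% of all, and TTTGAA, the cell cycle homology region, in 11.1% and 15.5%. CACGTG and TTCNNNGAA read the same on both strands and each place was counted once. For the CCAAT box, the E-box, the cell cycle homology region and the p53 half-site the medians with a match were -0.30, -0.60, -0.10 and -0.40. They rest on only 15, 3, 3 and 2 measured genes. The medians without a match were -0.33, -0.24, -0.39 and -0.30, over 16, 28, 28 and 29 measured genes. A match describes the letters of the window and is not evidence of binding.

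In the core, the structural subunit genes had ratios on both sides of 0, and the catalytic ones ranged from level to clearly lower. The median log2 ratio of 13 measured core genes was -0.12, with 1 gene higher by 1.5-fold or more and 2 lower. These are 7.69% and 15.4% of the core genes, both under the 25.9% of all measured genes in each direction. The alpha ring genes, whose products form the gate of the core, had a median of -0.030 over 6 genes and were split evenly, with 3 positive and 3 negative ratios. PSMA1 had signals of 25885 with p53 on and 15822 with p53 off, 1.64-fold higher, and was the only core gene past 1.5-fold in that direction, although scaling to the spike-ins turned its log2 ratio to -0.21, which is 0.59 above the median gene under that scaling. Its other probe sets gave 0.52 and -0.54 on the log2 scale, so its readings do not share a sign. PSMA7 was at 23974 with p53 on and 16934 with p53 off, a log2 ratio of 0.50 that its other probe set, at -0.24, did not repeat. PSMA2, PSMA3, PSMA4 and PSMA5 lay between -0.30 and 0.056.

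The beta ring genes whose products have no active site, PSMB1 to PSMB4, had a median of 0.062 and none was past 1.5-fold. PSMB2 had a log2 ratio of -0.28, and its 3 dimmer probe sets gave -1.43, 0.082 and 0.96. PSMB4, at 22156 with p53 on and 16782 with p53 off, likewise had probe sets of both signs, from -0.47 to 1.11. PSMB1 was at 28843 with p53 on and 21505 with p53 off and was the brightest of the 36 genes. PSMB1, PSMB2 and PSMB4 each had probe sets of both signs, so their own readings share no direction. For PSMB1 the negative reading came from a dim probe set, at 86.9 with p53 on, under the floor, and 196 with p53 off. Its brighter probe sets gave 0.42 and 0.055.

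Among the catalytic genes the 3 readings differed. PSMB5, which encodes the chymotrypsin-like subunit that bortezomib inhibits, had signals of 2507 with p53 on and 8234 with p53 off and was 3.28-fold lower. PSMB6, the caspase-like subunit gene, had signals of 4620.0 with p53 on and 8279 with p53 off and was 1.79-fold lower. PSMB7, the trypsin-like subunit gene, had signals of 16775 with p53 on and 17587 with p53 off, a log2 ratio of -0.068. PSMB5 and PSMB6 rest on 1 probe set each. PSMB7 has a dim second one whose p53 on signal was under the floor, with a log2 ratio of -0.58 or below.

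The immunoproteasome genes did not move as a set. PSMB9, whose product takes the place of the PSMB6 product, had signals of 1067 with p53 on and 238 with p53 off and was 4.47-fold higher. Its log2 ratio of 2.16 was reached or passed by 3.90% of all measured genes. PSMB8, which replaces PSMB5, had signals of 662 with p53 on and 727 with p53 off, a log2 ratio of -0.14. PSMB10, which replaces PSMB7, had signals of 383 with p53 on and 616 with p53 off and was 1.61-fold lower, though it missed 1.5-fold at a log2 ratio of -0.56 with a pseudocount equal to the floor. All 3 were far dimmer than most proteasome genes and rest on 1 probe set each. As differences of log2 ratios, PSMB9 moved by 3.003 more than PSMB6, PSMB8 by 1.58 more than PSMB5, and PSMB10 by -0.62 relative to PSMB7.

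PSMB9 sits in the MHC region of chromosome 6, in the order TAP2, PSMB8, TAP1 and PSMB9, with TAP1 and PSMB9 transcribed away from each other. TAP1, a subunit of the transporter that carries proteasome peptides into the endoplasmic reticulum, had signals of 5524 with p53 on and 1124 with p53 off and was 4.92-fold higher. TAP2, its partner, had a log2 ratio of 0.53, under 1.5-fold, and its other probe sets gave -0.074 and 0.38. IRF1, a transcription factor known to act on the shared TAP1 and PSMB9 promoter, had signals of 2533 with p53 on and 567 with p53 off, 4.47-fold higher, with a second probe set at a log2 ratio of 4.04, and was named after its value was seen. Of 9 measured genes of interferon-induced antigen presentation, 4 were at least 1.5-fold higher (ERAP1, TAP1, IRF1 and ERAP2) and 1 was lower, TAPBP at a log2 ratio of -1.81. These are 44.4% higher and 11.1% lower, against 25.9% of all measured genes in each direction. ERAP1, an aminopeptidase that trims peptides, had signals of 953 with p53 on and 161 with p53 off, but its other probe sets ranged from -0.22 to 1.13. Leukocytes express the immunoproteasome strongly. The summed signal of 13 leukocyte markers was 1893 with p53 on and 1136 with p53 off. Of them, 8 were above the floor with p53 on and 4 with p53 off. Over all probe sets, 52.2% with p53 on and 47.8% with p53 off were at or above the floor. The defining marker PTPRC was under the floor on both arrays, at 78.2 with p53 on and 87.4 with p53 off. The other marker lists had higher sums with p53 on too: 2108 with p53 on and 1114 with p53 off over 8 fibroblast markers, and 611 with p53 on and 233 with p53 off over 5 endothelial ones. The sum of 11 colon epithelium markers was likewise 178723 with p53 on and 112034 with p53 off. The part of these in the PSMB9 value was not tested.

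**Figure D2:**
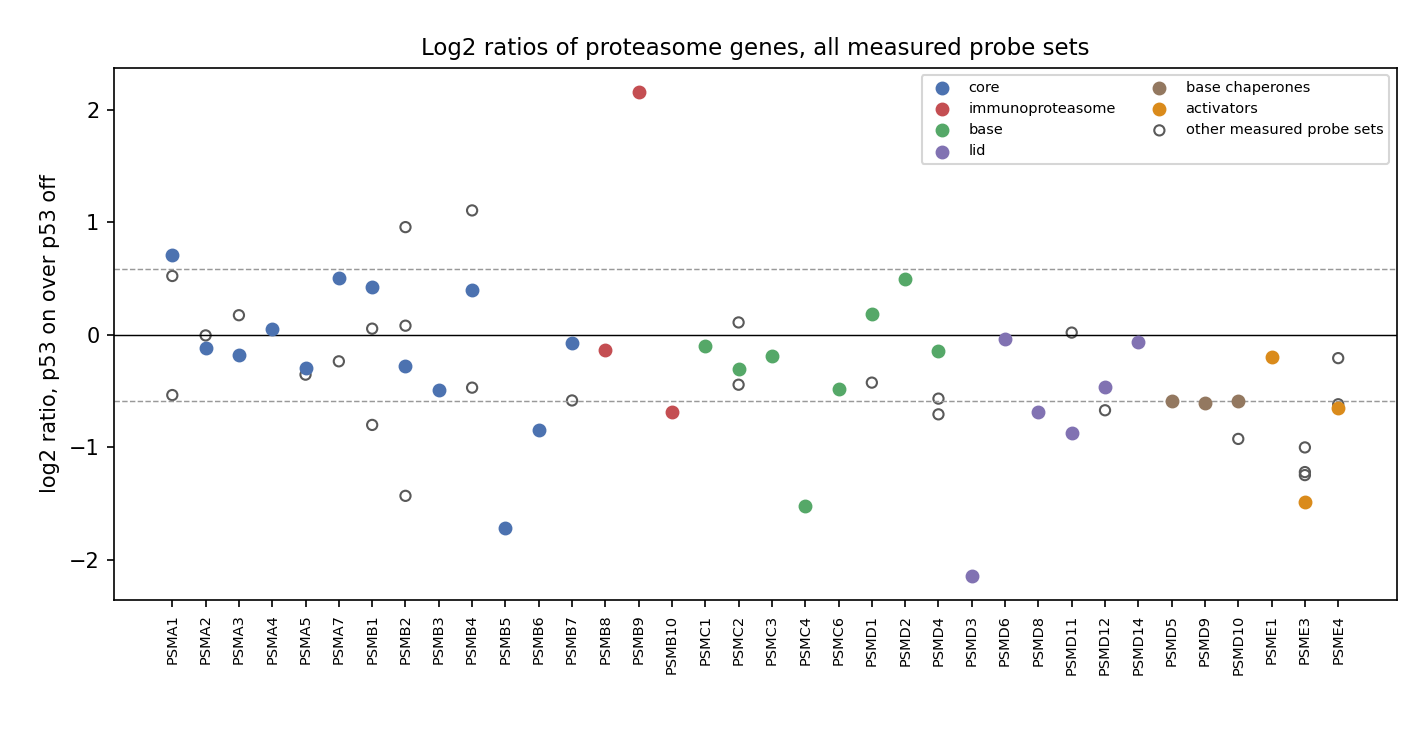
Log2 ratio of p53 on over p53 off (vertical axis) for each proteasome gene, as filled points for the brightest probe set, coloured by part of the complex, and open circles for the gene's other measured probe sets. Dashed lines mark 1.5-fold in each direction. All 4 PSME3 probe sets lie below the lower line, while PSMB2 and PSMB4 have probe sets on both sides of 0.

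In the base, 7 of 8 measured genes lay between the 1.5-fold thresholds and PSMC4 was lower, 12.5% against 25.9% of all measured genes. The median log2 ratio was -0.17. The ATPase ring genes, whose products unfold the substrate, all had negative ratios on the chosen probe set, with a median of -0.31 over 5 genes. Of all measured genes, 49.8% had a negative ratio. PSMC4 had signals of 1646 with p53 on and 4717 with p53 off and was 2.87-fold lower on its single probe set. PSMC1, PSMC2, PSMC3 and PSMC6 had log2 ratios from -0.48 to -0.10. The dimmer probe sets of PSMC2 gave -0.44 and 0.11, so its readings do not share a sign. The members of 1 ATPase ring were thus unequal in their signal changes, with PSMC4 apart from the other measured ones.

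The scaffold genes of the base differed little. PSMD2 had signals of 8948 with p53 on and 6360 with p53 off, a log2 ratio of 0.49. PSMD1 had a log2 ratio of 0.18 on its brightest probe set and -0.42 on the other. PSMD4, the gene of a ubiquitin receptor, had negative ratios on all 3 measured probe sets, from -0.71 to -0.15. None of these 3 genes passed 1.5-fold on the chosen probe set.

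In the lid, all 6 measured genes had negative ratios on the chosen probe set, as had 49.8% of all measured genes, and their median was -0.58. Of the 6, 3 were at least 1.5-fold lower (50%, against 25.9% of all measured genes) and none higher. The median was -0.066 when probe sets whose names mark shared sequence were left out, which removes PSMD12 and moves PSMD11 to its second probe set. PSMD3, a scaffold subunit of the lid, had signals of 928 with p53 on and 4097 with p53 off and was 4.41-fold lower. It had the smallest log2 ratio of the 36 genes, -2.14, and 1.16% of all measured genes were as low or lower. PSMD11, another scaffold subunit, had signals of 3673 with p53 on and 6743 with p53 off and was 1.84-fold lower, but its dim second probe set gave 0.020 and their mean, -0.43, misses 1.5-fold. PSMD8 had signals of 5155 with p53 on and 8303 with p53 off and was 1.61-fold lower. PSMD3, PSMD11 and PSMD8 are the 3 lid genes counted as lower. PSMD12 had negative ratios on both probe sets, -0.47 and -0.67. PSMD14, the deubiquitinase of the lid, and PSMD6 were level, with log2 ratios of -0.066 and -0.035. The lid values therefore spread from level to 4.41-fold lower, and PSMD3 and PSMD8 rest on 1 probe set each.

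The chaperones that assemble the base had nearly the same ratio in all 3 genes on the chosen probe sets. The SD over them was 0.0098, far under the pooled SD of 0.66 between probe sets of 1 gene. These data therefore cannot resolve so small a spread. PSMD9 was 1.52-fold lower, at 3103 with p53 on and 4715 with p53 off. PSMD10, the gene of the oncoprotein gankyrin, was 1.51-fold lower, at 1434 with p53 on and 2160 with p53 off, and its second probe set was lower too, at -0.93. PSMD5, at 1507 with p53 on and 2259 with p53 off, was 1.499-fold lower, just under the threshold. Gankyrin is known to bind MDM2 and to promote the degradation of p53. Of all measured genes, 25.9% were at least 1.5-fold lower. As low as PSMD5, PSMD9 and PSMD10, or lower, were 25.9%, 25.1% and 25.7%. The 3 values lie so near 1.5-fold that counting 2 of them as lower and 1 as between does not separate them. PSMD9 and PSMD10 both missed it after loess, at -0.53 and -0.45, and after quantile normalization, where PSMD9 was just under it and PSMD10 was at -0.52.

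Among the activators, PSME3 was at least 2-fold lower on all 4 of its probe sets, which no other proteasome gene with several measured probe sets was. It encodes a nuclear activator that is known to promote the MDM2-dependent degradation of p53. Its brightest probe set read 2171 with p53 on and 6063 with p53 off, 2.79-fold lower. The other 3 gave log2 ratios from -1.25 to -1.001. All 4 probe sets have names that mark shared sequence, so they may not be independent readings. PSME4, a nuclear activator linked to histone degradation, had signals of 2751 with p53 on and 4314 with p53 off, 1.57-fold lower, and its other 2 probe sets gave -0.62 and -0.21. It missed 1.5-fold after loess, at -0.56, and as the mean of its probe sets, at -0.49. PSME1, a subunit of the interferon-induced activator, had a log2 ratio of -0.20.

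Several probe sets of 1 gene were the only repeat measurement, and they share their RNA and array. Within a gene their log2 ratios differed by a pooled SD of 0.66, larger than the 1.5-fold threshold of 0.58. A ratio just past 1.5-fold is therefore no larger than the usual disagreement between such readings. Of the 36 genes, 17 had more than 1 measured probe set, and in 8 of these all had the same sign, or 47.1%, against 58.6% of the 6680 such genes on the array. The 8 were PSMA2, PSMA5, PSMB7, PSMD4, PSMD10, PSMD12, PSME3 and PSME4, and all their ratios were negative. In PSMB1 and PSMA3 the opposite sign came from a dim probe set, under the floor with p53 on and with p53 off respectively. The shared sign of PSMB7 also rests on a dim probe set, under the floor with p53 on. That of PSMA5 rests on a probe set near the floor of 112, at 113 with p53 on and 145 with p53 off. The second probe set of PSMA2 was level, at a log2 ratio of -0.0046. How often genes of a shared sign were negative on the whole array was not examined. Of the 11 genes at least 1.5-fold lower, 7 rest on a single probe set, 3 had several of the same sign (PSMD10, PSME3 and PSME4), and PSMD11 had both signs. Of the 5 genes past 2-fold, PSME3 alone had a second measured probe set, and all its probe sets have names that mark shared sequence.

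The lower readings were among the proteasome genes with lower mean signals. The mean includes the p53 on signal, so a lower p53 on reading itself lowers it. As a set the proteasome genes were bright, with a median mean signal of 7622 against 588 for all measured genes. Of 14 proteasome genes with a mean signal of 10000 or above, none was at least 1.5-fold lower and the median was -0.067. The 496 measured genes that bright had a median of 0.34, and 6.05% of them were lower, so a count of none is near the background there. At least 1.5-fold higher were 36.1% of the 496 genes, and 1 of the 14 proteasome genes, PSMA1, or 7.14%. Of 11 genes between 5000 and 10000, 4 were lower (36.4%) and the median was -0.47, against 21.2% and -0.026 for 754 measured genes. Of 11 under 5000, 7 were lower (63.6%) and the median was -0.60, against 27.0% and -0.014 for 12665 measured genes. The proteasome genes thus had a lower median than all measured genes in each of the 3 classes, which were set after the values were seen. The classes are wide, and the lowest holds 12665 of the 13915 measured genes. Within a class, proteasome genes and other genes were not matched in brightness. Over all 36 genes, the log2 ratio and the log2 mean signal had a Pearson r of 0.18, as a description of genes that share both arrays.

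**Figure D3:**
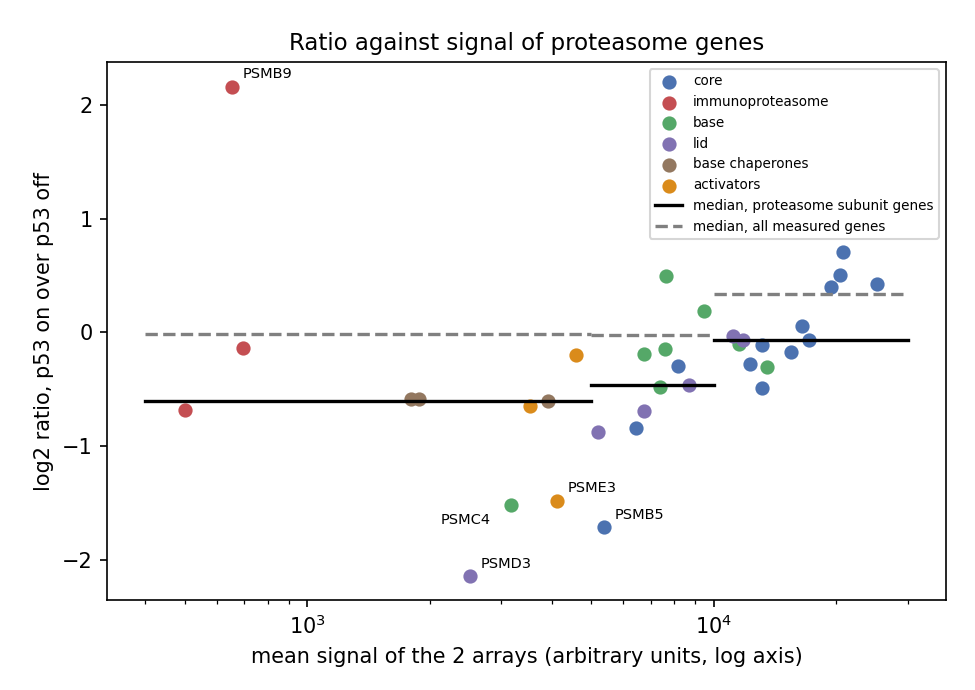
Log2 ratio of p53 on over p53 off (vertical axis) against the mean signal of both arrays (horizontal log axis) for 36 proteasome genes coloured by part. Solid lines are the proteasome genes' medians in 3 classes of mean signal and dashed lines those of all measured genes, and the solid line is below the dashed one in each class. The brightest class holds no gene at least 1.5-fold lower.

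Genes that work with the proteasome had ratios in both directions, with some large differences in single genes. Over 43 measured genes of the other lists, 15 were lower by 1.5-fold or more (34.9%, against 25.9% of all measured genes) and 7 higher (16.3%, against 25.9%), with a median of -0.29. Of 6 chaperones that assemble the core or its cap, 3 were lower and none was higher, a share of 50% lower. PSMG1, which helps to form the alpha ring, had signals of 6229.7 with p53 on and 13957 with p53 off, a log2 ratio of -1.16 on its single probe set. PSMG4 had a log2 ratio of -1.09, but its second probe set gave 0.50. Of 12 ubiquitin receptors, deubiquitinases, shuttles and other partners, 5 were lower (41.7%) and 1 was higher (8.33%). The higher one was ECPAS, a scaffold that binds the proteasome, at 12026 with p53 on and 2498 with p53 off, 4.81-fold higher, and its other 3 probe sets gave 0.97 to 1.66. PSMF1, a proteasome inhibitor gene, had a log2 ratio of -1.32, with the other probe sets between -0.23 and 0.046.

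NFE2L1, the gene of the factor that drives proteasome genes, had a log2 ratio of -0.18, and its other probe sets were at -0.60 and -0.075. Of the 5 measured genes of this list none was lower by 1.5-fold and 1 was higher, or 20.0%, against the same 25.9% of all measured genes in each direction. That was MAFF, a small MAF partner, at 10974 with p53 on and 2890.1 with p53 off, while its second probe set gave -0.92. NFE2L2 had the next largest size in this list, with log2 ratios of -0.52 and -1.07. Of 8 genes of p97, the ATPase that extracts ubiquitinated proteins, and its cofactors, 4 were lower and none was higher, against 25.9% of all measured genes in each direction. UBXN1 and FAF1 had the smallest log2 ratios there, -1.18 and -1.05, and FAF1 was also lower on both other probe sets. UBB, a polyubiquitin gene, had signals of 59200.2 with p53 on and 30581 with p53 off and was 1.94-fold higher, whereas the E1 enzyme genes UBA1 and UBA6 each had a log2 ratio of -0.84. UBA1's second probe set gave 0.040. PSMA8, a testis subunit gene, was under the floor on both arrays.

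**Figure D4:**
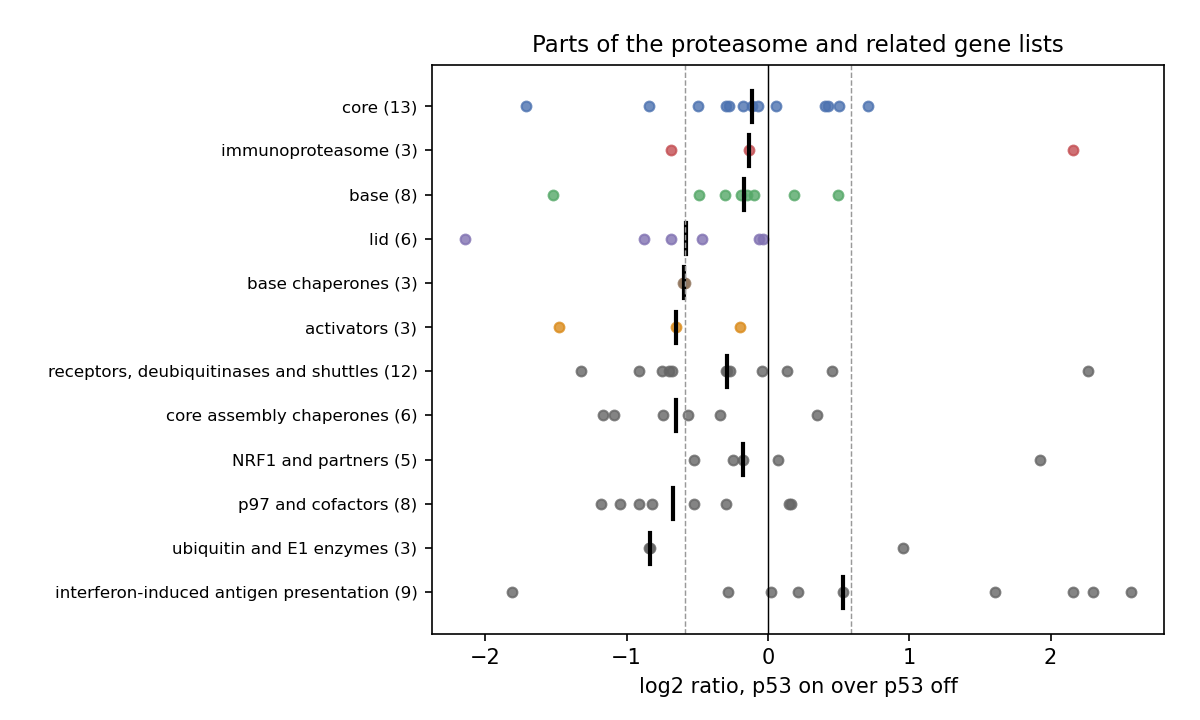
Log2 ratio of p53 on over p53 off (horizontal axis) for each measured gene (points) of the 6 parts of the proteasome, coloured, and of 6 lists of related genes, grey, with the number of genes in brackets. Thick bars are list medians and dashed lines mark 1.5-fold. The medians of all 6 proteasome parts lie below 0, from -0.65 to -0.12, and the list of interferon-induced antigen presentation has a median of 0.53.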

How the data were processed

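The authors made the deposited values, linear signal intensities per probe set, with MAS5, per the submitters' processing notes, which give no version here. Both arrays had a trimmed mean signal of 499.9 (lowest and highest 2% left out), so each had been scaled to a common target, and no normalization was added. There was 1 array per condition, which limits the precision.

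Gene names came from GEO's platform annotation and were updated through Entrez identifiers to RefSeq (GRCh38.p14), where 41037 of the 41091 probe sets with 1 gene were found. Another 1801 had several genes and 11721 were unnamed here. Signals under the median (50th percentile) of all signals, 112.4, were set to that floor, and genes under it on both arrays were not counted as measured. The gene of p53 itself is not reported here. Full signals are given for proteasome genes past 1.5-fold and for the catalytic and immunoproteasome genes, and the 2 largest ratios of each related list are named. Other genes were named after their values were seen. Members and lists were chosen with earlier results of these data known. Intervals over list medians are 95% order-statistic intervals over genes and leave out any spread between cultures. For genes with several RefSeq starts the most upstream promoter window was used, and motifs were searched on both strands. The functions were tested on simulated data. Tools were matplotlib 3.10.9, statsmodels 0.14.6, scipy 1.17.1, pandas 2.3.3 and numpy 2.4.6 under Python 3.11.15. Alternatives were other floors, pseudocounts, scalings and probe set choices.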

Additional observations from a re-analysis of the deposited data

Results flagged for a closer look

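Control probe sets lie outside the gene comparison. On them the p53 on array had a beta-actin signal 7.29 times as bright at the 3' end as at the 5' end, against 1.37 times on the p53 off array. Whether this difference has a part in the proteasome values was not tested.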

How the results depend on the processing

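No paired analysis was possible because each condition has 1 array, and for the same reason no replicate could be left out. PSMB9 stayed higher and PSMD3, PSMB5, PSMC4 and PSME3 stayed lower, all past 1.5-fold, under every alternative that gave them a value (PSME3 had none without probe sets named _x_at or _s_at). Across all alternatives the median log2 ratio of the proteasome genes ran from -1.16 to -0.23. Scaling to the hybridization spike-ins moved the most. It gave a median of -1.16, which is -0.36 relative to the median gene, with 30 genes lower by 1.5-fold or more, 25 of them by 2-fold or more, and 1 gene higher. It put the medians of the core, immunoproteasome, base, lid, base chaperones and activators at -1.03, -1.05, -1.09, -1.50, -1.51 and -1.57, turned PSMA1 to -0.21 (0.59 relative to the median gene), and gave 1 sign to all probe sets in 88.2% of genes with several. The count at least 1.5-fold higher was also 1 after quantile normalization, after loess (span 0.3) and with the mean of all measured probe sets, since PSMA1 then missed the threshold. The count at least 1.5-fold lower was 9 with a pseudocount equal to the floor, where PSMB10 and PSMD10 missed the threshold, after loess, with the mean of all measured probe sets, and without probe sets named _x_at or _s_at, and it was 10 after quantile normalization and 12 after centring. The base chaperone median was -0.55 with a pseudocount equal to the floor, -0.52 after quantile normalization, -0.45 after loess and -0.75 without those probe sets, a setting that also turned PSMD11 to 0.020 and left 26 proteasome genes. There the immunoproteasome median was 0.74, because PSMB8 drops out. Without the genes at a mean signal of 10000 and above, an alternative chosen after seeing the data, the median was -0.59, that of the core -0.84, and 1 gene was at least 1.5-fold higher. The floors at the 40th and 60th percentile, the pseudocount of 1 and centring on the median gene kept each count within 1.5 times its value and each median inside its interval or range over genes.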
